A study of Mus musculus with 8 samples.

Results

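The 37 genes described here are macrophage and myeloid genes that were listed by symbol and looked up in the count and TPM tables of the series. These members and the other gene lists below were chosen with earlier results of these data known. Comparisons of them with all genes tested are therefore descriptions and no independent support. All 37 symbols were found among the 55291 genes listed. Of these, 35 had enough counts to be tested, among 26820 genes tested in all. The RNA came from the ventricles of E10.5 mouse embryos. The 4 cKO libraries came from Pkn2 fl/fl embryos carrying XMLC2-Cre, a Cre driver active in cardiomyocytes. The 4 control libraries came from Pkn2 fl/fl littermates without Cre, so that both groups carried the floxed alleles on a C57BL/6N background (C57BL/6 in the strain label) and only the cKO group carried the driver. The driver is labelled as cardiomyocyte-specific, so that the myeloid genes were read in tissue whose deleted cells are the cardiomyocytes, and Pkn2 in the myeloid cells themselves was not measured. By the methods' general rule the unit was 1 animal or embryo, and no pooling is given for these libraries.

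Macrophages are phagocytes that clear dying cells and shape tissue as it develops. In the early embryo they derive from yolk sac progenitors, reach the heart with the circulation, and depend on the CSF1 receptor and on the transcription factor PU.1, the product of Spi1. They make the complement protein C1q, which tags material for uptake. They also carry Fc receptors and other receptors that signal through the adaptors encoded by Tyrobp and Fcer1g, and they can assemble an NADPH oxidase that releases superoxide into the phagosome. Microglia, the macrophages of the brain, share most of these genes and add markers of their own such as P2ry12 and Tmem119.

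PU.1 binds purine-rich sites around a GAGGAA core, and the promoters of the members are shown because most of the members were higher in cKO libraries. RefSeq promoters on GRCm38.p6 were found for 26 of the 37 members, and the 250 bases before each start were searched on both strands for GAGGAAG. The starts are those of RefSeq, and they can differ from the starts of the genes as deposited. The letters were found in 8 members, which is 30.8% of the 26, and in 3244 of 27025 genes, which is 12%. Another 2 motifs were searched in the same way. The AP-1 motif TGAGTCA was in 1 member (Cd68), or 3.85%, and in 5.16% of all genes. The E-box CACGTG was in 0 of 26 members and in 6.86% of all genes. A match is a description of the letters and no evidence of binding.

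Matches in 6 members are printed 5′ to 3′ on the strand of the gene (GRCm38.p6), with the motif in capitals; CTTCCTC is the motif read on the other strand. The C1qc and C1qb promoters are given at greater length because these neighbouring genes changed most among the members past the test. Only C1qc holds the motif. The printed stretches are different parts of the RefSeq promoter windows and do not align. That of C1qb lies directly before its RefSeq start. That of C1qc is the far part of its 250 bases, with the motif 194 bases before the RefSeq start. The deposited position of C1qc reaches to 136893065, so that by this position the same stretch lies directly before the gene.
C1qc, chr4:136893066-136893164, minus strand: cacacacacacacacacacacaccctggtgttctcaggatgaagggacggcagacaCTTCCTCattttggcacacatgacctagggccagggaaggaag
C1qb, chr4:136886201-136886300, minus strand, no match in its 250 bases: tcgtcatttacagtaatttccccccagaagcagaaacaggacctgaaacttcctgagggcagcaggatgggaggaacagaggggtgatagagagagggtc
Laptm5, chr4:130913267-130913293, plus strand, 39 bases before the start: cagcctgtggCTTCCTCttttttgttc
Mrc1, chr2:14229368-14229394, plus strand, 36 bases before the start: aaagggacagCTTCCTCtgtcctcctt
Mrc1, chr2:14229236-14229262, plus strand, 168 bases before the start: cctctctcccCTTCCTCctgtgcctta
Fcgr3, chr1:171059395-171059420, minus strand, 16 bases before the start: agtccatttcCTTCCTCtttttgtag
Fcgr1, chr3:96294009-96294035, minus strand, 56 bases before the start: tggcaacttcCTTCCTCttttctaatc
Itgam, chr7:128062546-128062572, plus strand, 84 bases before the start: ttttctcccgGAGGAAGgctacagagg
The remaining matches were in Trem2 and Cd33, at 41 and 226 bases before their RefSeq starts. By the deposited positions, the Laptm5 stretch lies inside its gene (130913125 to 130936141). The Cd33 match also lies inside its deposited gene (chr7, 43524216 to 43544428). Of the 6 members that passed the test below, all but Itgb2 were searched, and C1qc and Laptm5 hold the motif.

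Libraries held 47559845 to 56660938 counts (median 50884838). Pkn2, the targeted gene, was at 81.2 ± 3.07 CPM in cKO libraries and at 144 ± 9.85 CPM in control libraries (SD, n = 4 each). It was at 56.3% of its control level, with a log2 fold change of −0.83, SE 0.06 and adjusted p = 7.67e-06 (edgeR). CPM are counts scaled to 1000000 counts per library, here with TMM-scaled library sizes unless stated otherwise, and log2 fold changes are cKO against control. The test was the quasi-likelihood F test of edgeR, its p-values were adjusted over all 26820 genes (Benjamini-Hochberg), and a gene passed at an adjusted p of at most 0.05.

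The myeloid genes were higher in cKO ventricles as a group, although only a small part of them passed the test. Of the 35 tested, 34 had a positive log2 fold change, against 49.8% of all genes tested, and their median was 1.42, against −0.00085 over all genes tested. At least 2-fold higher were 27 members, against 6.59% of all genes tested. Past the threshold, 6 members rose, namely C1qb, C1qc, Stab1, Itgb2, Laptm5 and Ncf1, whereas 0.515% of all genes tested rose at that threshold. These 6 members were also at least 1.5-fold higher, as were 0.265% of all genes tested. None fell, and at an unadjusted p of at most 0.05 there were 27 members, or 77.1%, against 12.8% of all genes tested. A further 13 members had an adjusted p between 0.05 and 0.15. The share of all genes tested in that range was not computed.

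The number of members that passed depended on single libraries, as did the share of all genes tested that passed. Without cKO replicate 1 it was 1 (0.27% of all genes), without cKO replicate 2 it was 8 (1.07%), without cKO replicate 3 it was 17 (2.82%) and without cKO replicate 4 it was 4 (0.878%). Leaving out control replicate 1 gave 1 member (0.255% of all genes), control replicate 2 gave 10 (0.511%), control replicate 3 gave 1 (0.331%) and control replicate 4 gave 0 (0.261%), where 25 members still had an unadjusted p of at most 0.05 in edgeR. The added members were Csf1r, Cx3cr1, Spi1, Tyrobp, Fcgr3, Mrc1, Adgre1, Rac2, Lcp1, Lcp2 and Coro1a without cKO replicate 3, Cx3cr1, Rac2, Lcp2 and Coro1a without control replicate 2, and Spi1 and Fcgr3 without cKO replicate 2. Without cKO replicates 1 and 4 together it was 0 (0.401% of all genes), with 11 members at an unadjusted p of at most 0.05. In that smaller comparison 32 members were still higher and their median log2 fold change was 0.66. For comparisons with libraries left out, the share of all genes at an unadjusted p of at most 0.05 was not computed.

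The choice of test mattered as well. DESeq2 called 13 members (3.23% of all genes), limma-voom 3 (0.626%) and the robust quasi-likelihood fit 1 (0.966%), while edgeR without a filter on low counts called 21 (2.62%) and edgeR with the replicate number as a block 8 (1.42%). The limma-voom calls were Stab1, Itgb2 and Laptm5, and the robust call was Itgb2. C1qb, C1qc and Ncf1 passed in neither of these fits. On the TPM values limma called 0 members with a pseudocount of 1 (0.003% of all genes), with a pseudocount of 0.1 (0.021%) and with that pseudocount at a mean of at least 1 TPM (0.16%). At an unadjusted p of at most 0.05 these limma fits had 20, 24 and 15 members, and the matching shares of all genes were not computed.

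The libraries of a group were far from alike in these genes. The mean log2 CPM of the 35 tested members, relative to the control mean, was 2.10, 0.73, 0.64 and 1.57 in cKO replicates 1 to 4. It was −0.04, 0.65, −0.24 and −0.37 in control replicates 1 to 4. The cKO mean was thus 1.26 above control, with an SD of 0.70 in cKO and 0.45 in control libraries, but the groups overlapped, since control replicate 2 lay just above cKO replicate 3. cKO replicate 1 held the highest value of 27 members and cKO replicate 4 that of 5. In 26 members these libraries held the 2 highest values, against 8.33% of all genes tested. Among the controls, replicate 2 was the highest for 21 members, and in 22 members it lay above the lowest cKO library.

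**Figure D1:**
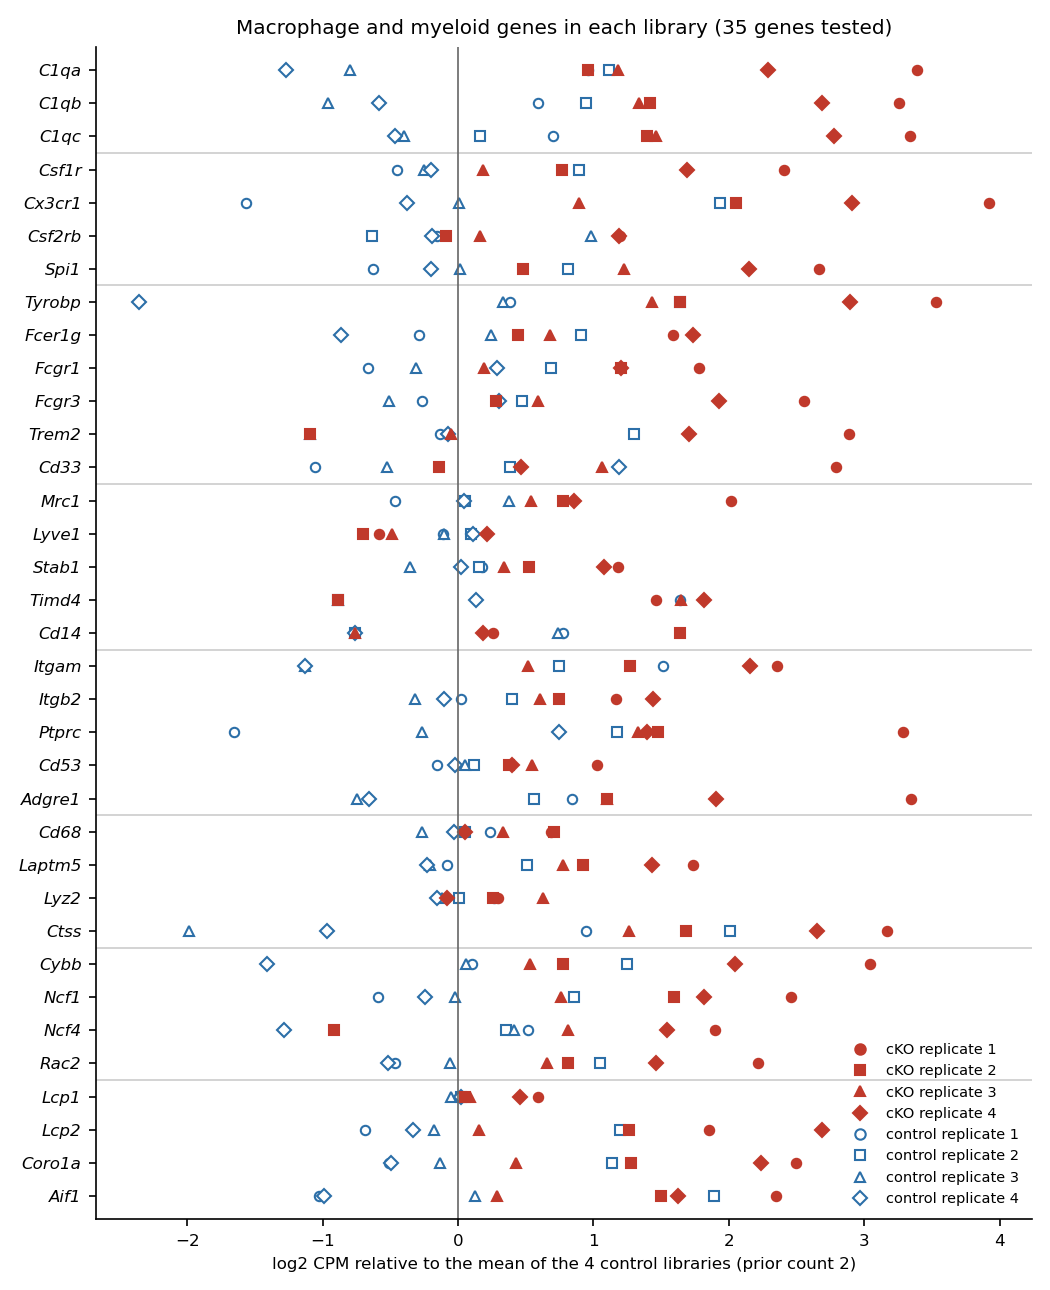
Log2 CPM of each of the 35 tested members (rows, in the order of their roles) relative to the mean of the 4 control libraries, with filled red symbols for cKO and open blue symbols for control libraries and 1 symbol shape for each replicate number; some symbols lie on top of each other. Red circles (cKO replicate 1) lie farthest to the right for 27 members, and open squares (control replicate 2) are the rightmost blue symbols for 21.

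Not overlapping between the groups were 10 members, all of them higher in cKO, namely C1qb, C1qc, Mrc1, Stab1, Itgb2, Ptprc, Cd53, Adgre1, Laptm5 and Lcp1. Of all genes tested, 3.14% were higher without overlap. For 4 against 4 libraries the smallest two-sided p of an exact permutation test is 0.0286, which is the p of each of these genes. Leaving out a library raises this share for genes of any kind. Without control replicate 2, 22 members were higher without overlap (5.18% of all genes tested), and without cKO replicate 3, 16 (7.07%). Without cKO replicate 1 there were 10 (4.42%), without cKO replicate 2 there were 14 (5.1%) and without cKO replicate 4 there were 11 (4.65%), where Lyve1 was also lower without overlap. Without control replicates 1, 3 and 4 there were 10 (4.71%), 11 (4.41%) and 10 (4.65%).

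The members took a very small part of the RNA. Their counts, divided by the library total without TMM scaling, summed to 443, 276, 265 and 385 CPM in cKO replicates 1 to 4 and to 220, 233, 179 and 194 CPM in control replicates 1 to 4 (342 ± 86.1 against 207 ± 24.5, SD, n = 4 each). Every cKO library was above every control library. Most of this sum came from Stab1, Lyz2, Lcp1 and Lyve1, which were set apart after their values were seen. Without them the sum was 115, 49.9, 42.1 and 84.8 CPM in cKO and 25.3, 42.5, 29.5 and 23.0 CPM in control libraries. In that smaller sum cKO replicate 3 lay just below control replicate 2. Shares of this size describe a small contribution, but the number of cells behind them cannot be computed here, since more cells of a type and more RNA per cell cannot be told apart in bulk tissue.

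Measurement quality differed widely among the markers. At least 10 counts in every library were found for 20 members, whereas 8 had 0 counts in at least 1 library. The latter were Cd163, Ms4a7, Tyrobp, Trem2, Timd4, Cd14, Itgam and Ctss. Cd163, a hemoglobin scavenger receptor of adult tissue macrophages, had 0 counts in each of the 8 libraries, which allows up to 3 counts or 0.0529 to 0.0631 CPM. Ms4a7 had 5 counts in all and was not tested. Low counts were mostly even (64.0% of counts from 1 to 20 over all genes, 50.2% of counts above 100), so that a low count may stand for fewer fragments than it says.

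On the length-scaled measure, 18 of the 37 members had a mean of at least 1 TPM, and 3 had a mean of at least 10 TPM, namely Lyz2 (45.3 TPM), Stab1 (31.9 TPM) and Lcp1 (25.3 TPM). All 6 members that passed the test were among the 18. For these the median log2 fold change was 1.18 and the median SE 0.34, whereas the 17 tested members under 1 TPM had a median log2 fold change of 1.70 and a median SE of 0.64, and 0 of them passed in edgeR. Larger differences thus stood beside larger errors. In 21 of 296 values the TPM was listed at 0 although the library had counts for the gene.

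**Figure D2:**
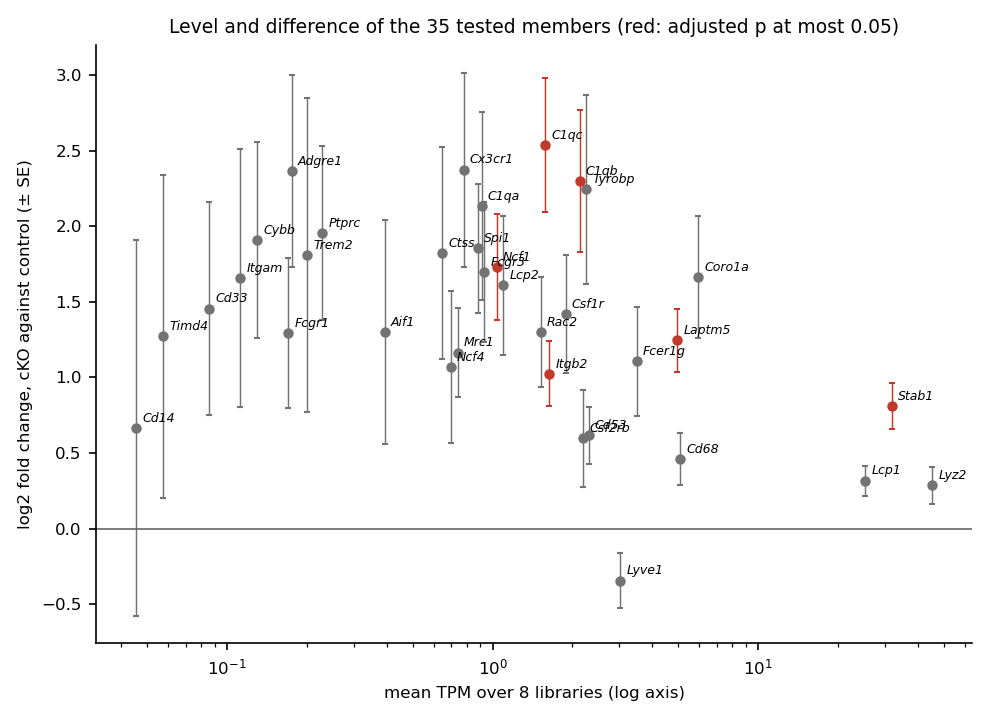
Log2 fold change of each tested member (vertical axis, cKO against control, bars ± SE from edgeR) against its mean TPM over the 8 libraries (horizontal log axis), with the 6 members past the threshold in red. The longest bars belong to genes under 1 TPM, and Lyz2, Stab1 and Lcp1 lie above 10 TPM with short bars.

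C1qa, C1qb and C1qc encode the chains of C1q, the recognition subunit of the classical complement pathway. The genes lie next to each other on the minus strand of chromosome 4 (GRCm38; C1qb 136880129 to 136886187, C1qc 136889804 to 136893065, C1qa 136895917 to 136898803). They were among the members with the largest differences. C1qc was at 3.31, 0.83, 0.87 and 2.23 CPM in cKO replicates 1 to 4 and at 0.50, 0.33, 0.21 and 0.20 CPM in control replicates 1 to 4. C1qb was at 3.95, 1.08, 1.02 and 2.66 CPM in cKO and at 0.59, 0.77, 0.18 and 0.24 CPM in control libraries. For both genes every cKO library was above every control library, and cKO replicates 1 and 4 stood well above replicates 2 and 3.

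C1qc rose by 2.54 on the log2 scale (SE 0.44, adjusted p = 0.0131 in edgeR) and C1qb by 2.30 (SE 0.47, adjusted p = 0.0293 in edgeR). C1qc was not called without cKO replicate 1 or control replicates 3 or 4, and C1qb also not without cKO replicate 4 or control replicate 1. C1qa, the third chain, was at 1.96, 0.33, 0.39 and 0.89 CPM in cKO and at 0.33, 0.37, 0.07 and 0.04 CPM in control libraries. Its log2 fold change was of similar size (2.13, SE 0.62), but cKO replicate 2 lay just below control replicates 1 and 2 and it did not pass (adjusted p = 0.123 in edgeR). The 3 genes together held 465, 108, 110 and 324 counts in cKO libraries and 77, 71, 26 and 24 counts in control libraries, so that the control values rest on few fragments. Of the other genes of the classical pathway and its inhibitor, 3 of 5 tested were higher and 0 passed (edgeR; 1 at an unadjusted p of at most 0.05), with a median log2 fold change of 0.31. Serping1, the C1 inhibitor, was at 9.35 ± 1.58 CPM in cKO and at 9.50 ± 0.861 CPM in control libraries, while C3, the central complement protein, was at 0.711 ± 0.537 CPM and 3.17 ± 5.09 CPM, the latter set by control replicate 3 at 10.8 CPM.

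**Figure D3:**
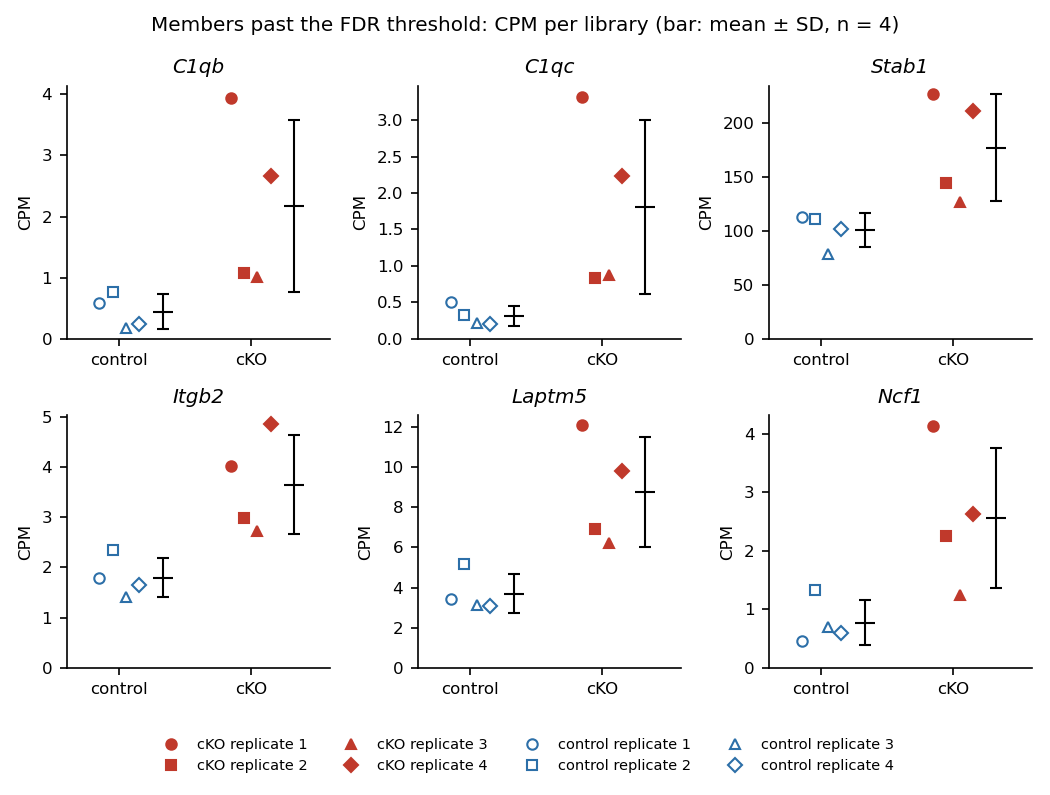
CPM per library for the 6 members past the threshold, 1 panel each with its own axis from 0, with 1 symbol for each library and a black bar for the mean ± SD of 4 libraries. cKO replicates 1 and 4 are the highest libraries in each panel, and the groups overlap in the Ncf1 panel.

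Of the growth factor and chemokine receptors and Spi1, 4 of 4 members were higher and 0 passed in edgeR. Csf1r, which encodes the receptor for CSF1 and IL-34, was at 11.7, 3.76, 2.49 and 7.14 CPM in cKO and at 1.59, 4.11, 1.84 and 1.90 CPM in control libraries. Control replicate 2 was above cKO replicates 2 and 3, and the log2 fold change was 1.42 (SE 0.39, adjusted p = 0.104 in edgeR). Exons of Hmgxb3 on the opposite strand cover 19.8% of the exon bases of Csf1r. The library kit does not mark strand, so that reads from this stretch cannot be assigned to either gene; Hmgxb3 itself had a log2 fold change of 0.01 (adjusted p = 0.981 in edgeR). Of the ligands, Csf1 was at 24.7 ± 3.27 CPM in cKO and at 22.3 ± 4.52 CPM in control libraries, and Il34 at 0.0641 ± 0.0614 and 0.139 ± 0.117 CPM, and neither passed (adjusted p = 0.700 and 0.727 in edgeR; 0 at an unadjusted p of at most 0.05).

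Spi1, which encodes PU.1, was at 2.88, 0.60, 1.04 and 2.0 CPM in cKO and at 0.26, 0.77, 0.42 and 0.36 CPM in control libraries. Only cKO replicate 2 fell within the control range, and the log2 fold change was 1.85 (SE 0.43, adjusted p = 0.0560 in edgeR). Cx3cr1, the fractalkine receptor of macrophages and microglia, was at 5.87, 1.58, 0.68 and 2.89 CPM in cKO and at 0.09, 1.45, 0.35 and 0.26 CPM in control libraries. Its spread within each group was wide, and its log2 fold change of 2.38 (SE 0.64) had an adjusted p of 0.0989 in edgeR. With 1 library left out the log2 fold change ran from 1.70 without cKO replicate 1 to 3.55 without control replicate 2, and it passed in the latter case and without cKO replicate 3. Csf2rb, the shared beta chain of the GM-CSF, IL-3 and IL-5 receptors, had a log2 fold change of 0.60 (adjusted p = 0.479 in edgeR), and its close homologue Csf2rb2 could share reads with it.

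Adaptors with ITAM motifs, Fc receptors, Trem2 and the Siglec Cd33 were higher in 6 of 6 members. Of them, 0 passed in edgeR, with log2 fold changes from 1.11 to 2.24 and adjusted p from 0.104 to 0.519. Tyrobp encodes the adaptor DAP12, through which TREM2 signals. It was at 2.26, 0.58, 0.50 and 1.45 CPM in cKO and at 0.22, 0.58, 0.21 and 0 CPM in control libraries, the last with 0 counts. Fcer1g, the Fc receptor gamma chain, was at 1.91 ± 0.826 CPM in cKO and at 0.889 ± 0.483 CPM in control libraries, and Fcgr3, a low-affinity IgG receptor, at 1.07 ± 0.782 and 0.332 ± 0.115 CPM. Fcgr1, the high-affinity IgG receptor, Trem2 and the Siglec Cd33 were sparser, with 4 to 29, 0 to 29 and 2 to 53 counts in a library. For Trem2 and Cd33 cKO replicate 1 alone held 29 and 53 counts, while cKO replicate 2 held 0 and 5.

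Downstream of ITAM motifs, 16 of 18 tested ITAM signalling genes were higher, and their median log2 fold change was 0.71. Of them, 0 passed in edgeR and 13 had an unadjusted p of at most 0.05. Syk, the kinase that binds phosphorylated ITAMs, was at 58.7 ± 4.73 CPM in cKO and at 50.5 ± 2.39 CPM in control libraries (adjusted p = 0.138 in edgeR), and the Src family kinase Lyn at 32.7 ± 2.15 and 31.2 ± 1.67 CPM (adjusted p = 0.773 in edgeR). Both are also expressed by other cells.

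Among the receptors for uptake and microbial patterns, Stab1 rose past the threshold, and Lyve1 was the sole tested member with a lower mean in cKO libraries. Stab1 encodes stabilin-1, a scavenger receptor of macrophages that is also made by sinusoidal and other endothelial cells. It was at 227, 144, 127 and 211 CPM in cKO and at 113, 111, 78.3 and 101 CPM in control libraries. Every cKO library was above every control library, and Stab1 rose by 0.81 on the log2 scale (SE 0.15, adjusted p = 0.0214 in edgeR), a call that was lost without cKO replicate 1 or without control replicate 1, 3 or 4. Lyve1, a hyaluronan receptor of lymphatic and endocardial endothelium and of some resident macrophages, was at 3.67, 3.37, 3.92 and 6.41 CPM in cKO and at 5.10, 5.89, 5.14 and 5.97 CPM in control libraries. Its log2 fold change was negative (−0.34, SE 0.18, adjusted p = 0.456 in edgeR), with 3 cKO libraries below every control library and cKO replicate 4 above them.

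Mrc1, the mannose receptor CD206, was at 5.54, 2.33, 1.97 and 2.46 CPM in cKO and at 0.96, 1.39, 1.75 and 1.38 CPM in control libraries. The groups did not overlap and cKO replicate 1 stood far above the others, with a log2 fold change of 1.16 (SE 0.30, adjusted p = 0.0813 in edgeR). Timd4, a phosphatidylserine receptor, and Cd14, a co-receptor for lipopolysaccharide, held at most 12 and 8 counts in any library, with log2 fold changes of 1.27 and 0.66 (adjusted p = 0.714 and 0.901 in edgeR).

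Because Stab1 and Lyve1 are also endothelial genes, markers of endothelium and endocardium are set beside them. All 18 of 18 endothelial and endocardial markers had a positive log2 fold change (median 0.37), against 49.8% of all genes tested. Past the threshold, 7 of 18 rose, against 0.515% of all genes tested. Those with the lowest adjusted p were Emcn, an endothelial sialomucin (log2 fold change 0.72, adjusted p = 0.0177 in edgeR), the transcription factor Sox17 (1.22, adjusted p = 0.0205 in edgeR), Nfatc1 of the endocardium (0.36, adjusted p = 0.0262 in edgeR) and Cdh5, VE-cadherin (0.53, adjusted p = 0.0303 in edgeR). In all the other lists together these 7 genes passed. The number was 0 without cKO replicate 1 (0.27% of all genes tested) or without control replicate 1, 3 or 4 (0.255%, 0.331% and 0.261%). It was 13, 32 and 3 without cKO replicates 2, 3 and 4 (1.07%, 2.82% and 0.878%) and 11 without control replicate 2 (0.511%). The summed level of the list was 2138 to 2699 CPM in cKO and 1680 to 1993 CPM in control libraries. Its mean log2 CPM relative to control was 0.60, 0.26, 0.22 and 0.74 in cKO replicates 1 to 4 and 0.07, 0.06, −0.15 and 0.03 in control replicates 1 to 4, so that cKO replicates 1 and 4 were again the highest. The part of endothelial RNA in the result for Stab1 was not tested.

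The surface and adhesion genes shared by leukocytes were higher in 5 of 5 tested members. Itgb2, the beta-2 integrin chain CD18 that pairs with several leukocyte alpha chains, was the 1 that rose past the threshold. It was at 4.03, 2.99, 2.72 and 4.86 CPM in cKO and at 1.79, 2.34, 1.41 and 1.64 CPM in control libraries. The groups did not overlap, and the log2 fold change was 1.02 (SE 0.21, adjusted p = 0.0326 in edgeR), a call lost without cKO replicate 1 or 4 or without control replicate 1, 3 or 4. Its partner Itgam (CD11b) had 0 to 20 counts in a library, and the transcript model Gm49368 shares 67.4% of its exon bases.

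Ptprc, the leukocyte phosphatase CD45, was at 2.28, 0.62, 0.56 and 0.59 CPM in cKO and at 0.04, 0.50, 0.16 and 0.36 CPM in control libraries. Adgre1, the macrophage marker F4/80, was at 1.23, 0.229, 0.228 and 0.428 CPM in cKO and at 0.19, 0.15, 0.04 and 0.04 CPM in control libraries. In both genes cKO replicate 1 stood far above the other cKO libraries. For Ptprc the others lay close to the highest control, as did cKO replicates 2 and 3 for Adgre1. Adgre1 in cKO replicate 4 was higher, at 0.428 CPM against 0.19 CPM in the highest control. The log2 fold changes of Ptprc and Adgre1 were 1.96 and 2.36, with adjusted p of 0.128 and 0.0981 in edgeR. The leukocyte tetraspanin Cd53 was measured more evenly, at 2.70 ± 0.623 CPM in cKO and at 1.76 ± 0.144 CPM in control libraries (log2 fold change 0.62, adjusted p = 0.141 in edgeR).

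Of the lysosomal genes, 4 of 4 were higher and Laptm5 rose past the threshold. Laptm5 encodes a lysosomal membrane protein of hematopoietic cells. It was at 12.1, 6.90, 6.20 and 9.80 CPM in cKO and at 3.42, 5.16, 3.13 and 3.08 CPM in control libraries, without overlap. It had the lowest adjusted p among the members (log2 fold change 1.25, SE 0.21, adjusted p = 0.0108 in edgeR) and kept its call when any cKO library was left out, but lost it without control replicate 1 or 4.

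Lyz2, lysozyme M, had the highest mean TPM of the members. It was at 36.4, 35.5, 45.9 and 28.1 CPM in cKO and at 35.6, 29.8, 27.3 and 26.7 CPM in control libraries. Its order differed from that of the C1q genes, since cKO replicate 3 was the highest and cKO replicate 4 lay within the control range. The log2 fold change was 0.29 (SE 0.12, adjusted p = 0.327 in edgeR), and the near-identical gene Lyz1 could share its reads. Cd68, macrosialin, was at 4.63 ± 0.965 CPM in cKO and at 3.36 ± 0.482 CPM in control libraries (log2 fold change 0.46, adjusted p = 0.249 in edgeR). The protease gene Ctss was at 0.767 ± 0.466 and 0.220 ± 0.266 CPM (log2 fold change 1.82, adjusted p = 0.271 in edgeR). With 1 library left out its log2 fold change ran from 1.39 to 2.93, the latter without control replicate 2, and it passed in 0 of these fits.

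The NADPH oxidase of phagocytes is built from a membrane pair and cytosolic subunits, and 4 of 4 members were higher. Ncf1, the cytosolic organizer subunit p47phox, was at 4.13, 2.24, 1.24 and 2.62 CPM in cKO and at 0.46, 1.33, 0.71 and 0.60 CPM in control libraries. It rose by 1.73 on the log2 scale (SE 0.35, adjusted p = 0.0281 in edgeR), although cKO replicate 3 lay below control replicate 2 (exact permutation p = 0.0571), and the call was lost without cKO replicate 1 or without control replicate 1, 3 or 4. Exons of Gtf2ird2 on the opposite strand cover 15.7% of its exon bases, and Gtf2ird2 had a log2 fold change of −0.02 (adjusted p = 0.969 in edgeR). Cybb, the catalytic subunit, was at 1.25, 0.23, 0.19 and 0.61 CPM in cKO and at 0.13, 0.33, 0.12 and 0.02 CPM in control libraries (log2 fold change 1.91, adjusted p = 0.196 in edgeR).

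The cytosolic subunit Ncf4 was at 0.827 ± 0.541 CPM in cKO and at 0.393 ± 0.183 CPM in control libraries, and the small GTPase Rac2 of blood cells at 3.73 ± 1.98 and 1.52 ± 0.908 CPM (adjusted p = 0.390 and 0.111 in edgeR). Of the subunits that are no members, 2 of 3 were higher and 0 passed (edgeR; 1 at an unadjusted p of at most 0.05). Cyba, the partner of Cybb, was at 51.7 ± 3.42 CPM in cKO and at 49.9 ± 3.72 CPM in control libraries, and the widely expressed Rac1 at 233 ± 6.16 and 242 ± 6.51 CPM. Both are also expressed by cells other than phagocytes, and the part of each cell type in these levels was not measured.

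Actin regulators and signalling adaptors of blood cells were higher in 4 of 4 members, and 0 passed in edgeR. Lcp1, L-plastin, an actin-bundling protein, was at 61.4, 42.1, 43.4 and 55.9 CPM in cKO and at 40.9, 41.3, 39.2 and 41.4 CPM in control libraries. The control libraries lay close together and every cKO library was above them, with a log2 fold change of 0.32 (SE 0.099, adjusted p = 0.152 in edgeR). Coro1a, the actin-binding coronin of leukocytes, was at 13.5, 5.80, 3.19 and 11.3 CPM in cKO and at 1.64, 5.25, 2.16 and 1.66 CPM in control libraries (log2 fold change 1.67, SE 0.40, adjusted p = 0.0661 in edgeR). Here control replicate 2 lay above cKO replicate 3. Lcp2, the adaptor SLP-76, was at 3.30 ± 2.24 and 1.09 ± 0.760 CPM, with cKO replicate 4 the highest at 6.30 CPM, and Aif1, the microglial and macrophage marker IBA1, at 0.318 ± 0.185 and 0.130 ± 0.179 CPM (adjusted p = 0.117 and 0.514 in edgeR). Exons of Gm17705 on the opposite strand cover 16.6% of the exon bases of Aif1.

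Other macrophage genes were mostly higher as well. Of 29 tested tissue macrophage genes that are no members, 25 were higher and the median log2 fold change was 1.03. Of these, 0 passed in edgeR and 13 had an unadjusted p of at most 0.05. The most abundant, the uptake receptor Axl and the phagocytosis checkpoint Sirpa, were at 105 ± 6.88 and 34.1 ± 4.03 CPM in cKO and at 95.9 ± 4.37 and 30.0 ± 1.69 CPM in control libraries. Both are also expressed outside the blood lineage. Of 9 myeloid transcription factors, 8 were higher (median log2 fold change 0.16) and 0 passed in edgeR (2 at an unadjusted p of at most 0.05); Id2 was at 157 ± 22.1 and 152 ± 5.22 CPM and Irf5 at 16.6 ± 0.972 and 16.6 ± 0.763 CPM.

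Markers particular to microglia were split in direction. Of 8 tested, 4 were higher and their median log2 fold change was 0.02; 0 passed in edgeR and 2 had an unadjusted p of at most 0.05. Sall1 was at 54.2 ± 3.58 CPM in cKO and at 55.8 ± 3.6 CPM in control libraries, and Olfml3 at 27.4 ± 1.41 and 31.7 ± 1.66 CPM, both of which other embryonic cells also express. The purinergic receptors P2ry12 and P2ry13 and the surface genes Siglech and Gpr34 had totals of 58, 29, 8 and 24 counts over the 8 libraries. These defining markers were thus at or near 0 in both groups, and the genes are called macrophage and myeloid genes here.

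Markers of other blood cells were read in the same libraries. Of 9 tested neutrophil markers, 5 were higher (median log2 fold change 0.22) and 0 passed in edgeR (1 at an unadjusted p of at most 0.05). Mpo, myeloperoxidase of early granulocyte-monocyte cells, was at 4.66 ± 1.96 CPM in cKO and at 1.65 ± 1.44 CPM in control libraries, and Prtn3 at 1.33 ± 0.743 and 0.842 ± 0.772 CPM (adjusted p = 0.108 and 0.664 in edgeR). Of 5 dendritic cell markers tested, 3 were higher (median 0.05; 0 passed and 1 at an unadjusted p of at most 0.05 in edgeR). Of these, Zbtb46 was at 29.9 ± 1.04 and 28.9 ± 1.25 CPM and Clec9a at 3.07 ± 2.22 and 0.787 ± 0.248 CPM, with an adjusted p of 0.0505 in edgeR for the latter.

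Of 4 mast cell markers tested, 2 were higher (median −0.01; 0 passed and 1 at an unadjusted p of at most 0.05 in edgeR), with Kit at 27.6 ± 9.51 and 20.6 ± 3.54 CPM and Cpa3 at 0.168 ± 0.175 and 0.0743 ± 0.0661 CPM. Lymphocyte markers were close to absent, since 4 of 13 had enough counts to be tested and Cd3e, Cd3d and Ms4a1 had 0 counts. Of these 4, 3 were higher (median 0.85; 0 passed and 2 at an unadjusted p of at most 0.05 in edgeR), with Cd79b at 0.458 ± 0.186 and 0.202 ± 0.0854 CPM and Cd79a at 0.373 ± 0.171 and 0.256 ± 0.0572 CPM.

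Megakaryocyte markers showed a similar order of libraries. All 10 of 10 were higher and the median log2 fold change was 1.05. Of them, 0 passed in edgeR and 9 had an unadjusted p of at most 0.05. Their mean log2 CPM relative to control was 1.02, 0.78, 0.11 and 1.91 in cKO replicates 1 to 4 and −0.39, 1.03, −0.18 and −0.46 in control replicates 1 to 4. As for the members, cKO replicate 3 was the lowest cKO library and control replicate 2 the highest control, but here cKO replicate 4 was above replicate 1. Itga2b, the platelet integrin chain, was at 35.7 ± 17.6 and 17 ± 7.46 CPM and the platelet chemokine Pf4 at 17.4 ± 9.56 and 7.94 ± 4.70 CPM.

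Erythroid markers were ordered differently. All 12 of 12 were higher (median 0.27; 0 passed and 1 at an unadjusted p of at most 0.05 in edgeR), but their mean log2 CPM was 0.46, −0.43, 0.33 and 0.91 in cKO and 0.10, −0.57, 0.92 and −0.45 in control libraries, with control replicate 3 the highest of all. The embryonic globins Hbb-y and Hba-x were at 1174 ± 562 and 990 ± 457 CPM in cKO and at 977 ± 565 and 817 ± 477 CPM in control libraries. The part of blood content in the result for the members was not tested.

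Markers of the heart muscle had a median near 0. Of 13 cardiomyocyte markers, 4 were higher (median −0.03; 0 passed and 3 at an unadjusted p of at most 0.05 in edgeR), with Actc1 at 11877 ± 576 and 12318 ± 695 CPM and Myh7 at 5870 ± 796 and 5958 ± 475 CPM. The cardiac transcription factor Nkx2-5, named after its values were seen, was lower without overlap, at 97.0 ± 15.2 and 121 ± 4.25 CPM (log2 fold change −0.32, adjusted p = 0.109 in edgeR). Of 11 tested liver and yolk sac endoderm markers, 1 was higher (median −1.74; 0 passed and 7 at an unadjusted p of at most 0.05 in edgeR). Trf was at 15 ± 2.97 and 13.2 ± 1.46 CPM and Afp at 0.371 ± 0.354 and 4.72 ± 7.50 CPM. Control replicate 1 stood apart in that list, at 1.76 in mean log2 CPM relative to control.

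**Figure D4:**
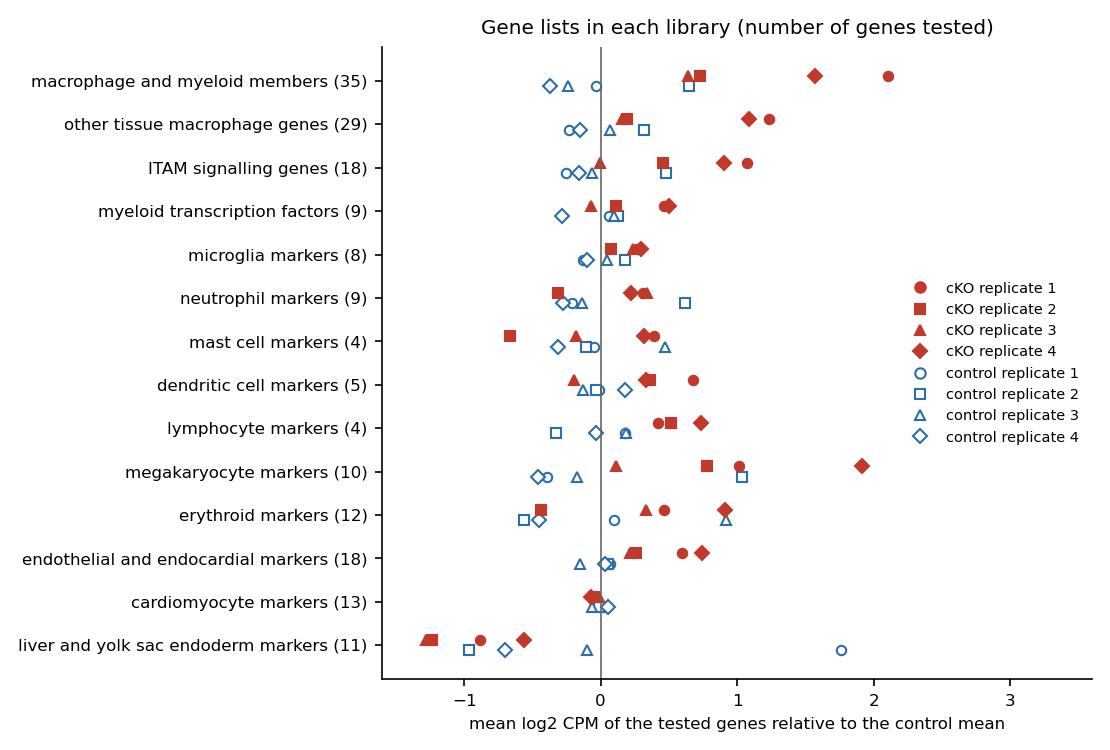
Mean log2 CPM of the tested genes of each list (rows, number of genes in brackets) in each library relative to the control mean, with filled red symbols for cKO and open blue symbols for control libraries. For the macrophage and myeloid members cKO replicates 1 and 4 lie at 2.10 and 1.57, control replicate 2 lies at 0.65, and the cardiomyocyte symbols of both groups lie close to 0.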

How the data were processed

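Poly(A) RNA of ventricular tissue from 4 cKO and 4 control embryonic samples (E10.5) was sequenced as paired-end reads (150 bp per the labels, 100 bp in the series text). The authors deposited a table of raw counts by gene symbol, not normalized, and a table of TPM values, length-scaled abundances, with 1 column per library and no pooling. The methods name nf-core/rnaseq and GRCm39, and the submitters' processing notes list FastQC, Trim Galore 0.6.7, HISAT2 2.2.1, StringTie 2.2.1, featureCounts and DESeq2. The strand setting of the counting is not given in the sources used here. Gene positions in the deposited TPM table were those of GRCm38: 33 of 37 members lay within 1000 bases of the start that RefSeq gives on GRCm38, and 0 of 37 did so on GRCm39.

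Counts were tested with edgeR 4.0.16 in R 4.3.3 (quasi-likelihood F test, TMM, total count of 8 or more, design with condition, Benjamini-Hochberg adjustment). CPM used library sizes scaled by TMM. On the log2 scale the prior count was 2. SE was the log2 fold change divided by the square root of F. Permutation tests of CPM were exact and two-sided. Alternatives were DESeq2 1.42.0, limma-voom (limma 3.58.1), the robust fit, DESeq2 size factors, no filter on low counts, filterByExpr, a block for the replicate number, limma on log2(TPM + 1) and log2(TPM + 0.1), removal of the hemoglobin genes and removal of each library in turn. Leaving out cKO replicates 1 and 4 and halving the counts were added after seeing the data. The members, the 16 other lists (181 genes), and the lists' grouping were chosen with earlier results of these data known. Full values were given for members that passed the test or had a mean of at least 10 TPM; other members were described as needed. Of each other list at most 4 genes that passed, or the 2 most abundant if none did, were named; P2ry12, P2ry13, Siglech, Gpr34, Cd3e, Cd3d and Ms4a1 were named as markers with few or 0 counts, and Nkx2-5 after its values were seen. Exon overlaps were read from the GENCODE annotation of GRCm39. Promoter sequences are from RefSeq (GRCm38.p6). A comparison of the C1q protein chains was planned and not done here. Libraries of the same number were not taken as pairs. The methods give 1 animal or embryo as the general unit and name no pooling for these libraries, and p-values measure the spread between the libraries. No 2 libraries of a group were copies (chi-square per degree of freedom of 12 to 39.1 over 12 pairs). Floors for counts of 0 cover counting error only. The edgeR test was checked on simulated data with changes planted in genes of moderate level (at least 1 CPM on average). Members under that level, and the most abundant ones, were not covered by this check.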

Additional observations from a re-analysis of the deposited data

Results flagged for a closer look

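In 7 of 78 groups of 4 libraries examined, 1 library lay far from the other 3 (Dixon's test at the 95% level). Chance flags about 1 in 20 groups, and the groups share their libraries. Control replicate 2 stood above the other controls in Csf1r (4.11 CPM, others 1.59 to 1.90), Laptm5 (5.16 CPM, others 3.09 to 3.42), Lcp2 (2.22 CPM, others 0.573 to 0.83) and Coro1a (5.25 CPM, others 1.64 to 2.16). cKO replicate 1 stood above the other cKO libraries in Mrc1 (5.54 CPM, others 1.97 to 2.46) and Ptprc (2.28 CPM, others 0.56 to 0.623). Control replicate 4 stood below the other controls in Ncf4 (0.12 CPM, others 0.456 to 0.517).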

How the results depend on the processing

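The direction of single members was stable under the settings run, with 3 exceptions: Cd14 was at −0.49 without cKO replicate 2 (up to 1.20 without another library), and Csf2rb at −0.091 and Trem2 at −1.41 without cKO replicates 1 and 4. The number of members called (6, and the same 6 at both thresholds) was not. It was 13 (12 at both thresholds) with DESeq2, 3 with limma-voom, 1 in the robust fit, 21 (20) without a filter, and 0 without cKO replicates 1 and 4. limma on log2 TPM called 0 with pseudocount 1, pseudocount 0.1 and a mean of at least 1 TPM. At an unadjusted p of at most 0.05 it had 20, 24 and 15 members, without a matching share of all genes. With pseudocount 1 the median log2 fold change was 0.47, and at a mean of at least 1 TPM 17 of 18 members were higher. Leaving out 1 library gave 0 to 17 members called (0 to 16 at both thresholds) and 0 to 32 genes of the other lists. In these comparisons 0.255% to 2.82% of all genes tested passed. They gave 10 to 22 members without overlap, where 4.41% to 7.07% of all genes tested were higher without overlap. Of the genes of the other lists, 7 passed in edgeR, where 0.858% of all genes tested passed in either direction. With DESeq2 it was 27 (3.23% of all genes), with limma-voom 3 (0.626%) and in the robust fit 2 (0.966%). It was 4 with filterByExpr (1.1%), 45 without a filter (2.62%) and 0 in each fit on TPM (0.003% to 0.16%). Without cKO replicates 1 and 4 it was 2 (0.401%), and with halved counts 4 (0.858%). The cause of these differences was not tested. The median SE was 0.64 for tested members under 1 TPM and 0.34 for those above.

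The replicate number as a block called 8 members and 18 genes of the other lists (1.42% of all genes tested). Libraries of the same number did not deviate together: the correlations over 18584 genes were −0.10, −0.03, 0.02 and −0.06.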
